A study of Mus musculus with 6 samples.

Results

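Replication licensing is the step that prepares origins of DNA replication for use, and 10 of its genes were followed here in mouse embryonic fibroblasts that carry a K68R form of SOD2 and in wild type (WT) fibroblasts. The 10 were picked by name from the 50763 genes of the count table, as the helicase subunits Mcm2, Mcm3, Mcm4, Mcm5, Mcm6 and Mcm7, the loading factors Cdc6 and Cdt1, the sliding clamp Pcna and the loading inhibitor Gmnn (geminin). All 10 were present in the table and all 10 passed the filter on low counts, among 16730 genes tested.

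The K68R group was 3 libraries from fibroblasts of mice whose Sod2 gene was changed by CRISPR so that lysine K68 of SOD2, an enzyme of mitochondria that removes superoxide, is an arginine. The WT group was 3 libraries from fibroblasts of mice without the change. The study describes the change as a mimic of SOD2 that is not acetylated, and the comparison asks what differs in cells that carry it. Both genotypes were of the C57BL/6J strain, were taken at embryonic day 13.5, were kept in culture for a short time and were not given any treatment that the labels record. Poly(A) RNA was sequenced, and the labels give neither the zygosity of the knock-in nor the number of embryos behind a library. Library totals ran from 26200088 to 31738219 counts in K68R and from 30856781 to 40691447 in WT, and 3 counts corresponded to 0.0728 to 0.116 CPM, far below every licensing gene. Sod2 itself had 48.9, 45.6 and 47.2 CPM in K68R, against 71.8, 68.9 and 69.2 CPM in WT, a log2 fold change of -0.57 with an adjusted p = 2.96e-23 (edgeR), and the counts cannot show the changed codon.

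In G1 phase the origin recognition complex, bound to DNA, works with Cdc6 and Cdt1 to place rings of the 6 MCM subunits around the double helix, where they stay inactive until S phase kinases turn them into the replicative helicase. Geminin holds Cdt1 from S phase on, and Pcna, the clamp that tethers DNA polymerases, also marks Cdt1 for destruction on replicating DNA, so that each origin fires only once in a cycle. Many of these genes are known targets of E2F transcription factors, and their transcripts are abundant in cycling fibroblasts and scarce in resting ones.

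In the K68R fibroblasts all 10 licensing transcripts fell relative to WT at an adjusted p under 0.05 (edgeR quasi-likelihood test, Benjamini-Hochberg over all genes tested), the call made for 40.5% of all genes tested. Their median log2 fold change of K68R over WT was -1.30, or 2.46-fold lower, beside a median of -0.01 for all genes tested. At least 2-fold lower levels were found for 8 of the 10, against 7.57% of all genes tested, and the exceptions were Mcm2 and Cdt1. When the test was made against a 1.5-fold bound in place of no change, 9 of the 10 were still called lower, against 14.9% of genes tested, and Cdt1 was not, with an adjusted p = 1.0 (edgeR). In all 10 genes the highest K68R library lay below the lowest WT library, as it did for 41.0% of genes tested. Summed over the 10 genes, the libraries held 573, 582 and 577 CPM (counts scaled to TMM-normalized library sizes) in K68R and 1363, 1359 and 1344 CPM in WT. These are levels in bulk RNA, in which fewer cells in cycle and less of each transcript per cell cannot be told apart.

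**Figure D1:**
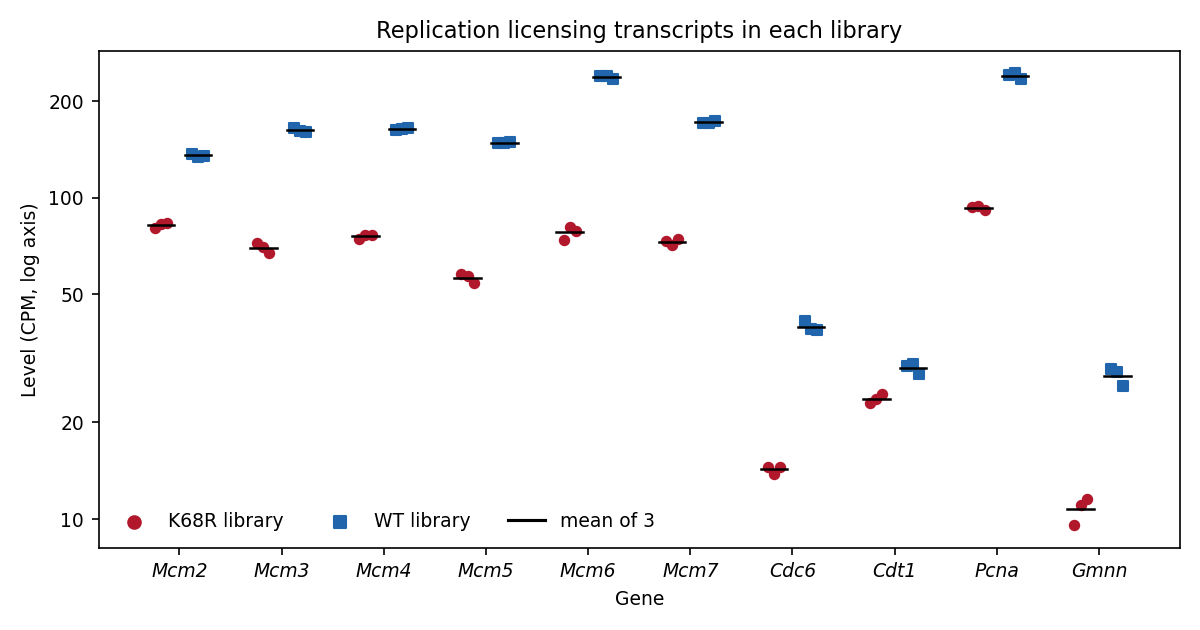
Level of each licensing transcript in every library, in CPM on a log axis, with K68R libraries as red circles left of WT libraries as blue squares and a black line at the mean of each group of 3. The groups do not overlap for any of the 10 genes, and Cdt1 shows the narrowest gap, with means of 23.7 CPM in K68R and 29.5 CPM in WT.

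The promoters of 4 of these genes are printed because they span the range seen, from Mcm6, the gene that fell most, and Mcm5, the helicase subunit with the next largest change, through Pcna to Cdt1, the gene that fell least. Each window holds 250 bases before and 50 bases after an annotated start site, 5′ to 3′ on the gene's strand, from RefSeq on build GRCm38.p6. The windows lie at chr1:128359656-128359955, minus strand, for Mcm6, at chr8:75109259-75109558, plus strand, for Mcm5, at chr2:132253131-132253430, minus strand, for Pcna, and at chr8:122567765-122568064, plus strand, for Cdt1. Capitals mark matches on either strand to any of 4 words known from E2F sites, TTTCCCGC, TTTGGCGC, TTTCGCGC and TTTGCCGC.
Mcm6: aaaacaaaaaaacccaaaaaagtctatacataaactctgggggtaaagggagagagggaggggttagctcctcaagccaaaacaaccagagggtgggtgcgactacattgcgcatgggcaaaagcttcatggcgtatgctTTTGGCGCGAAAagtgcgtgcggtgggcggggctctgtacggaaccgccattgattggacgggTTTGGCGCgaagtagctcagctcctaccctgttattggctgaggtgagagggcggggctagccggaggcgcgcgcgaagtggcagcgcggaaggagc
Mcm5: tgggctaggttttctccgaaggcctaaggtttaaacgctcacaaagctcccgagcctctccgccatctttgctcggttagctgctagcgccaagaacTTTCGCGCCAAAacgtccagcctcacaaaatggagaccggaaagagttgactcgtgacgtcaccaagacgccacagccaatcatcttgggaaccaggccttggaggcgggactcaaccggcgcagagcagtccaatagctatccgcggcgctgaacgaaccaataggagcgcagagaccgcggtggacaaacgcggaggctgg
Pcna: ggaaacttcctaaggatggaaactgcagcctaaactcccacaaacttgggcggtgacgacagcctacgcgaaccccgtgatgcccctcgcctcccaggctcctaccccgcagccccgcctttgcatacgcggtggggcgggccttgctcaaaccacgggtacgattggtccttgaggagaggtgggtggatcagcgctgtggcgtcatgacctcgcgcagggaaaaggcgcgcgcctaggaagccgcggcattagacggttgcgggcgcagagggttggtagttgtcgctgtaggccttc
Cdt1: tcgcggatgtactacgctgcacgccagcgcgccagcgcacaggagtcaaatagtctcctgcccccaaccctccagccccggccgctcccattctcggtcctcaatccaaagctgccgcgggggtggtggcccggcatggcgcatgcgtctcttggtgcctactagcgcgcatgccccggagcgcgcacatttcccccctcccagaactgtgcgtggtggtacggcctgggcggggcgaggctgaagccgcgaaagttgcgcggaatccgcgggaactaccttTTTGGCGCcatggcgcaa

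The Mcm6 window held 3 matches, first bases 141, 145 and 204 of the window, of which the first 2 overlap. Mcm5 held 2 overlapping matches, first bases 98 and 102, Cdt1 held 1, first base 283 and so past the start site, and Pcna held none of these words. Of the 10 genes, 8 were matched to the RefSeq table, with 9 windows since Mcm7 has 2, and Mcm4 and Gmnn were not. An E2F word was found in 6 of the 8, namely Mcm3, Mcm5, Mcm6, Mcm7, Cdc6 and Cdt1, while Pcna and Mcm2 held none, and 744 of all 32851 promoter windows (2.26%) held one. The CCAAT box, which NF-Y binds, was found on either strand in 6 of the 8 and in 37.4% of all windows. The cell cycle homology word TTTGAA was found in the Mcm2 window alone among the 8 and in 17.9% of all windows. A match describes letters and not binding. Pcna and Mcm2, without an E2F word, had log2 fold changes of -1.36 and -0.72, and Mcm3 and Mcm7, with 2 matches each, -1.21 and -1.23. With length and GC content taken into account, Pcna and Mcm2 had -0.91 and -1.34, and Mcm3 and Mcm7 -1.27 and -1.35. A link between these words and the size of the falls was not tested.

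The helicase subunits fell by unequal amounts, most in Mcm6 and least in Mcm2. Mcm6 (chr1:128259312-128287442, minus strand, build mm39), a subunit of the catalytic core of the ring, had 73.7, 81.3 and 78.9 CPM in the K68R libraries, against 239, 239 and 233 CPM in the WT libraries. All K68R libraries were near a common low level and all WT libraries near a common high one, with no overlap. It was 3.03-fold lower, at a log2 fold change of -1.60 (SE 0.0271, edgeR adjusted p = 1.03e-55), and 2.49% of all genes tested had a lower one.

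Mcm5 (chr8:75836096-75855067, plus strand), which in yeast forms with Mcm2 the gate through which DNA enters the ring, had 58.0, 57.0 and 54.1 CPM in K68R, against 148, 148 and 149 CPM in WT. The groups stood well apart, and the WT libraries differed among themselves less than the K68R libraries did. The gene was 2.63-fold lower, at a log2 fold change of -1.40 (SE 0.0302, edgeR adjusted p = 2.84e-50). Its partner at the gate, Mcm2 (chr6:88860456-88875762, minus strand), had 80.7, 82.7 and 83.5 CPM in K68R, against 137, 134 and 135 CPM in WT. Those groups did not overlap either, but the gap was the smallest among the helicase subunits. Mcm2 was 1.65-fold lower, at a log2 fold change of -0.72 (SE 0.0282, edgeR adjusted p = 8.64e-35), and 15.2% of genes tested had a lower value.

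The other subunits lay between these. Mcm7 (chr5:138162845-138170675, minus strand), another subunit of the core, had 73.1, 71.1 and 74.4 CPM in K68R, against 171, 171 and 173 CPM in WT, and its log2 fold change was -1.23. Mcm3 (chr1:20873188-20890536, minus strand), which in yeast contacts Cdc6 at the origin, had 72.2, 70.3 and 67.4 CPM in K68R, against 165, 161 and 160.1 CPM in WT, and its log2 fold change was -1.21. Mcm4 (chr16:15441761-15455264, minus strand), a main target of the activating kinase Cdc7, had 74.5, 76.4 and 76.6 CPM in K68R, against 163, 164 and 165 CPM in WT, and its log2 fold change was -1.11. None of these groups overlapped, the standard errors ran from 0.0275 to 0.0287 and the largest adjusted p of the 3 was 9.67e-47 (edgeR). Of the merged exons of Mcm7, 8.44% overlap the gene Ap4m1 on the opposite strand, and since the counts ignore strand, reads there cannot be assigned to either gene. No other licensing gene had exons that overlap another gene.

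Of the 2 loading factors, Cdc6 fell like the helicase subunits and Cdt1 by less than any of them, before offsets for length and GC content. Cdc6 (chr11:98798627-98814768, plus strand), the ATPase that joins the origin recognition complex to recruit the helicase, had 14.6, 13.9 and 14.5 CPM in K68R, against 41.3, 38.9 and 38.8 CPM in WT. It was 2.78-fold lower without overlap, and its log2 fold change was -1.47 (SE 0.0535, edgeR adjusted p = 9.86e-37). Cdt1 (chr8:123294754-123299869, plus strand), which brings the helicase to the origin, had 23.0, 23.6 and 24.4 CPM in K68R, against 30.0, 30.3 and 28.3 CPM in WT. The highest K68R library was below the lowest WT library, though the distance was small. Cdt1 was 1.245-fold lower, at a log2 fold change of -0.32 (SE 0.0513, edgeR adjusted p = 9.29e-08), and 35.1% of genes tested had a lower value. With an offset for exon length alone, its log2 fold change was -0.03 and its adjusted p = 0.551 (edgeR), so the call on Cdt1 depends on how length is treated.

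Gmnn (chr13:24935828-24954222, minus strand), the inhibitor of Cdt1, had 9.57, 11.1 and 11.5 CPM in K68R, against 29.2, 28.7 and 25.9 CPM in WT. Within K68R the first library was the lowest, yet all 3 stayed far below WT. Geminin's transcript was 2.60-fold lower, at a log2 fold change of -1.38 (edgeR adjusted p = 1.20e-29), and its standard error of 0.0656 was the widest of the 10. Pcna (chr2:132091206-132095100, minus strand) had 93.2, 94.6 and 91.7 CPM in K68R, against 240.4, 244 and 235 CPM in WT. These values formed tight groups with a wide gap. The clamp's transcript was 2.57-fold lower, at a log2 fold change of -1.36 (SE 0.0250, edgeR adjusted p = 1.30e-54). Its pseudogene Pcna-ps2 had 4 to 12 counts in the K68R libraries and 14 to 26 in the WT libraries, beside 2407 to 2951 counts for Pcna in K68R and 7625 to 9912 in WT, and Pcna-ps1 had no counts.

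Across all genes, fold changes varied with the GC content of the transcript, and the licensing genes were therefore also set beside genes of similar length and composition. Among tested genes of 1260 to 5024 exonic bases, the span of the 10, the median log2 fold change was -0.40 at 40 to 45% GC, -0.32 at 45 to 50%, -0.05 at 50 to 55% and 0.55 at 55 to 60%. Each of the 10 lay below the median of its own class. Mcm2 at 55.01% GC and Cdt1 at 58.6% GC, the genes with the smallest falls, were in the class whose median was above 0. Over the 10 genes the log2 fold change had a Pearson correlation of 0.67 and a Spearman correlation of 0.45 with GC content, and 0.41 and 0.25 without Cdt1, values that describe genes measured in the same 6 libraries and are not a test.

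**Figure D2:**
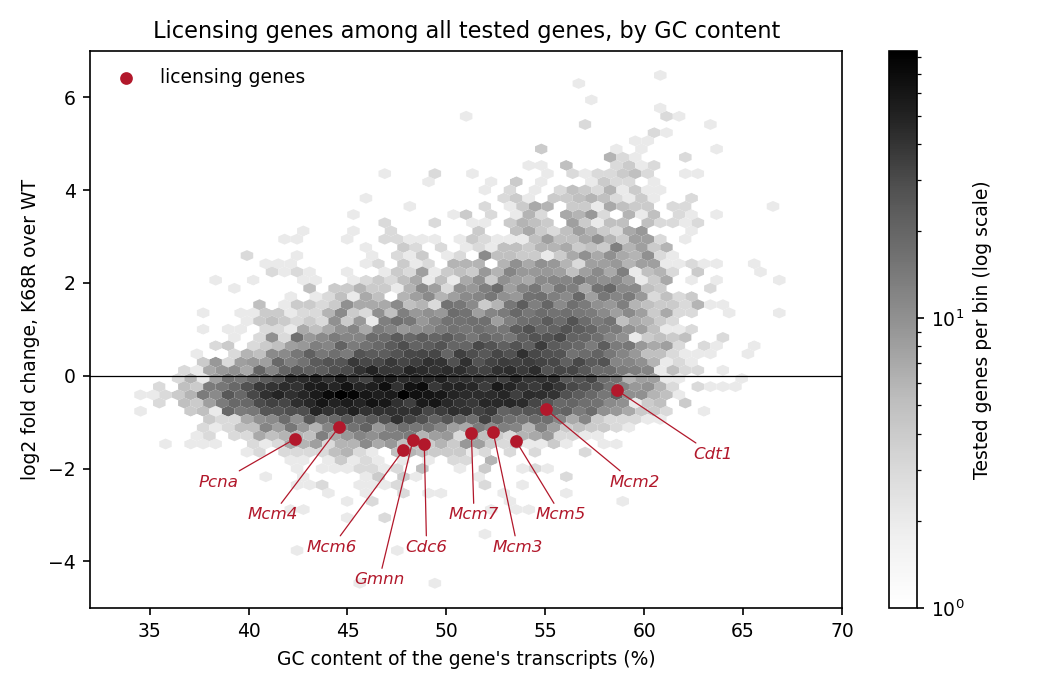
Log2 fold change of K68R over WT for tested genes with a known GC content, as grey hexagons shaded by the number of genes on a log scale, against the GC content of their transcripts in percent, with the 10 licensing genes in red. The grey cloud rises toward high GC content, and the licensing genes lie toward its lower edge from Pcna at 42.3% to Cdt1 at 58.6%.

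When exon length and GC content entered the model as offsets, all 10 genes were again lower in K68R at an adjusted p under 0.05 (edgeR), against 42.9% of the 15676 genes with a GC value. The median of the 10 stayed at -1.30, while the order among them changed. Mcm2 moved to -1.34 and Cdt1 to -0.93, both larger falls than without offsets, and Mcm5 to -1.78, the lowest value of the 10 under this setting. Mcm4 moved to -0.79, Pcna to -0.91 and Gmnn to -1.12, all smaller falls. Mcm6, Mcm3, Mcm7 and Cdc6 moved little, to -1.54, -1.27, -1.35 and -1.56. With the GC content of the longest transcript in place of that over all transcripts of a gene, a setting added after seeing the data, Mcm2 had -0.86 and Cdt1 -0.76, while Mcm7 at -1.67 and Cdc6 at -1.67 lay below Mcm5 at -1.61. The size ranking of the licensing genes thus depends on these settings, and the direction was lower for each gene under all settings tried, the Cdt1 value near 0 with the length offset included.

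**Figure D3:**
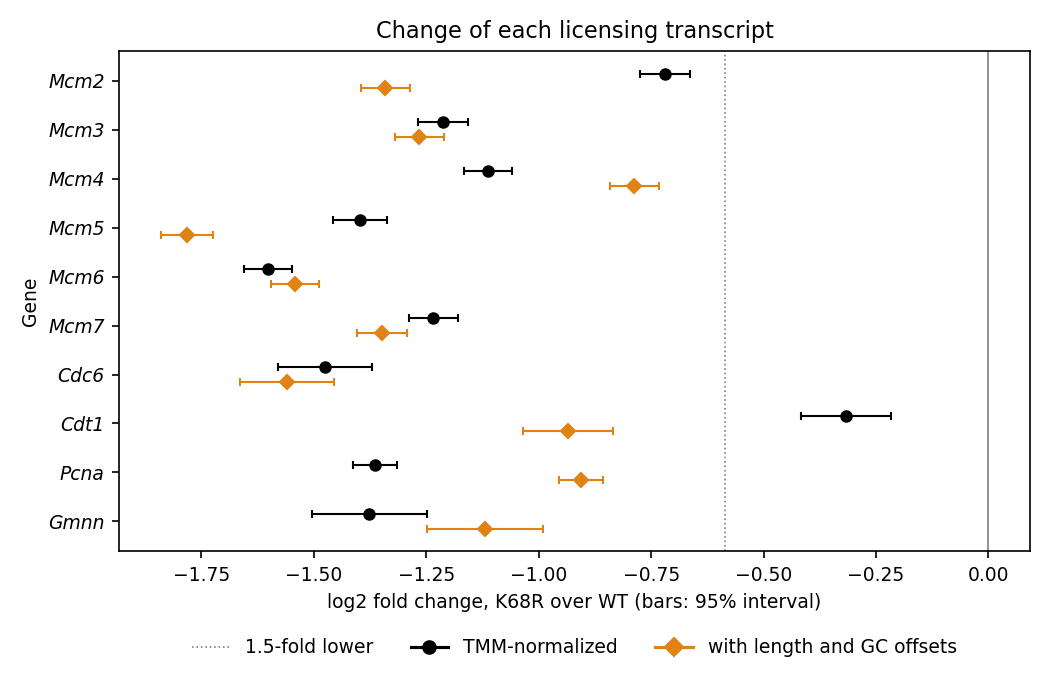
Log2 fold change of K68R over WT for each licensing gene, with bars for 95% intervals, as black circles after TMM normalization and as orange diamonds with length and GC offsets. All points lie left of 0, only Cdt1 without offsets lies right of the dotted line for a 1.5-fold lower level, and Mcm2 and Cdt1 move furthest left when offsets are added.

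The helicase is a ring with 1 copy of each subunit, so the balance among the 6 transcripts was examined within each library, where library scaling cancels, as shares of the summed level per exonic kilobase. Mcm2 held 19.5, 19.8 and 20.1% of the sum in K68R, against 14.2, 14.02 and 14.1% in WT, and so was the highest subunit in K68R and the lowest in WT. Mcm6 held 13.6, 14.8 and 14.5% in K68R, against 18.9, 19.0 and 18.5% in WT, which put it the fifth in K68R and, with Mcm3, among the 2 highest in WT. Mcm5 held 13.1 ± 0.465% in K68R and 14.9 ± 0.0863% in WT, and Mcm4 held 17.1 ± 0.212% in K68R and 16.1 ± 0.174% in WT (SD, n = 3). For each of these 4 the groups did not overlap, and the two-sided exact permutation p was 0.1, the lowest this design can reach (adjusted 0.15 over the 6 subunits).

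The shares of Mcm3 were 18.7 ± 0.660% in K68R and 18.8 ± 0.206% in WT and those of Mcm7 were 17.0 ± 0.472% in K68R and 17.4 ± 0.184% in WT (SD, n = 3), with exact permutation p = 0.9 and p = 0.4. These differences were smaller than the spread between libraries. Within K68R the order of Mcm4 and Mcm7 changed from library to library, as did that of Mcm3 and Mcm6 within WT, so neither pair can be ranked. The coefficient of variation over the 6 subunits, a measure of how uneven they are, was 15.6 ± 0.841% in K68R and 11.9 ± 0.531% in WT (SD, n = 3), a difference of 3.78 percentage points with an exact permutation p = 0.1. With length and GC offsets the difference was 8.0 percentage points, and 3.09 with the GC content of the longest transcript. The place of Mcm2 among the subunits depends on which GC value is used. With that over all transcripts its log2 fold change of -1.34 was close to the -1.35 of Mcm7 and the -1.27 of Mcm3, and with that of the longest transcript it was -0.86, beside -1.67 for Mcm7 and -1.35 for Mcm3.

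**Figure D4:**
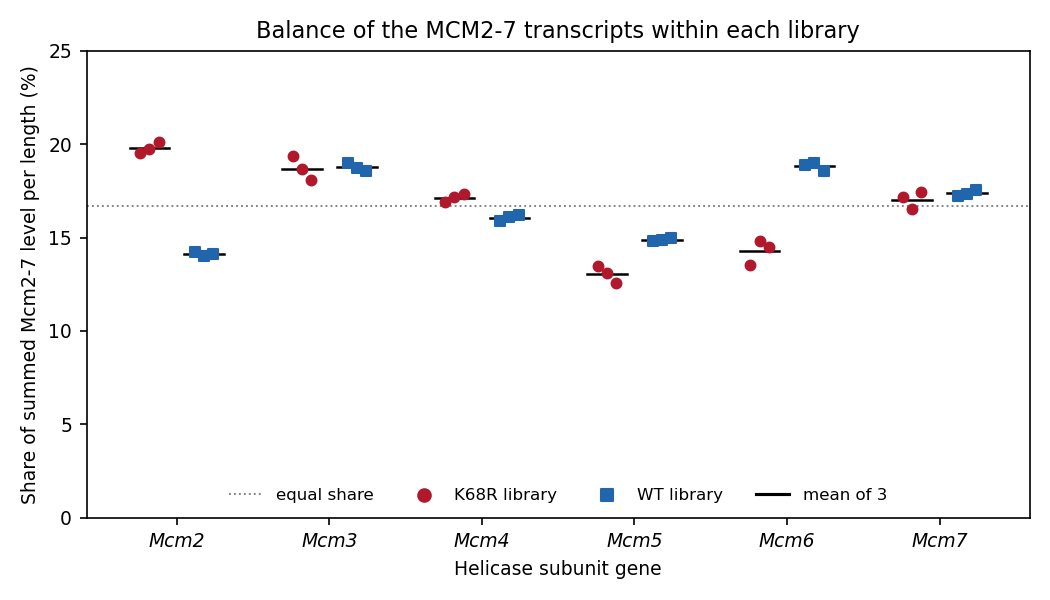
Share of each helicase subunit in the summed Mcm2 to Mcm7 level per exonic kilobase, in percent, in every library, with K68R libraries as red circles left of WT libraries as blue squares and black lines at the means. Mcm2 stands higher and Mcm6 lower in all K68R libraries than in any WT library, while Mcm3 and Mcm7 overlap.

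Levels of different genes were set side by side per exonic kilobase. This scale is rough, since it takes all annotated exons of a gene as its length and is not corrected for GC content. On it Pcna was the most abundant of the 10 in both genotypes, at 73.9 CPM per kilobase in K68R and 190.3 in WT. The helicase subunits followed at 16.1 to 24.4 in K68R and 40.2 to 53.5 in WT, then Cdt1 at 10.8 in K68R and 13.47 in WT, Gmnn at 4.05 in K68R and 10.6 in WT, and Cdc6 at 2.85 in K68R and 7.90 in WT. This order of classes was the same in both genotypes.

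Because geminin acts by binding Cdt1, the ratio of their transcripts was compared as well. Cdt1 per exonic kilobase was 2.91, 2.58 and 2.56 times Gmnn in the K68R libraries and 1.24, 1.28 and 1.32 times Gmnn in the WT libraries. No library of one genotype came near the other, and the log2 ratio was 1.07 higher in K68R, with a two-sided exact permutation p = 0.1, the smallest possible, and 0.125 after adjustment over the 5 ratios examined. With length and GC offsets that difference was 0.19, and 0.47 with the GC content of the longest transcript, so its size, unlike its direction, depends on the setting.

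The remaining ratios set a single gene against the mean of Mcm2 to Mcm7. Cdt1 over the helicase was 0.531 in K68R and 0.285 in WT, a log2 difference of K68R minus WT of 0.90, and 0.41 with offsets, or 0.56 with the GC content of the longest transcript. Cdc6 over the helicase was 0.140 in K68R and 0.167 in WT, a log2 difference of -0.26, and -0.21 with offsets, or -0.35 with the longest transcript. Pcna over the helicase was 3.64 in K68R and 4.03 in WT, a log2 difference of -0.15 that turned to 0.44 with offsets, or 0.46 with the longest transcript. Each of these 3 had an exact permutation p = 0.1, the smallest possible. Gmnn over the helicase was 0.199 in K68R and 0.224 in WT, with libraries that overlapped, an exact permutation p = 0.2 and a log2 difference of -0.17 that turned to 0.22 with offsets, or 0.09 with the longest transcript. The direction of the Pcna and Gmnn ratios is therefore not settled by these data.

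The genes whose 6 values most resembled the mean profile of Mcm2 to Mcm7, by Euclidean distance of mean-centred log2 CPM among 10897 other genes at 5 CPM or more, were Septin10, Thbs2, Slc25a5, Kpna2 and Cav1. They encode a septin, a thrombospondin of the matrix, an ADP/ATP carrier of mitochondria, an importin and the coat protein of caveolae, and none is in the replication lists. Their distances were 0.0389 to 0.0485, less than those of Mcm7 at 0.0678 and Mcm3 at 0.0750, and far less than that of Cdt1 at 1.10. With 2 genotypes and 6 libraries, such likeness is mostly a like fold change.

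Beyond licensing, the other genes of the replication machinery were counted in lists named for their roles. Among all genes tested 40.5% were lower and 40.8% higher, and with offsets 42.9% of genes with a GC value were lower. All 6 genes of the origin recognition complex were lower in K68R, with a median log2 fold change of -0.84, beside -1.30 for the licensing genes and -0.01 for all genes. Orc6, its smallest subunit, averaged 40.1 ± 0.815 CPM in K68R, against 87.3 ± 1.79 CPM in WT (SD, n = 3 each), a log2 fold change of -1.12, and Orc2 and Orc3, core subunits, had -0.83 and -0.60. With length and GC offsets 5 of the 6 remained called lower, with a median of -0.50, and Orc4, named after its value was seen, was not called at -0.04. Of the merged exons of Orc4, 9.68% overlap Acvr2a and Mbd5 on the opposite strand, in counts that ignore strand.

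Of 17 genes that turn the loaded helicase on or hold the fork together, 14 were lower and 2 higher. Among all genes tested those shares were 40.5% and 40.8%. The median of the 17 was -1.09, and -0.79 with offsets. Dbf4, the activator of the kinase Cdc7, averaged 51.3 ± 1.49 CPM in K68R, against 109.5 ± 2.19 CPM in WT (SD, n = 3 each), a log2 fold change of -1.09. Topbp1, a scaffold of helicase activation, had -0.89, and Tipin, a fork protection factor, had -1.27. The 2 higher genes were Ticrr, which helps deliver Cdc45, at 1.07 and at 0.51 with offsets, and the helicase Recql4 at 1.07, which reversed to -0.34 with offsets. Of the merged exons of Recql4, 10.2% overlap Lrrc14 and Mfsd3 on the opposite strand, in counts that ignore strand. Timeless, partner of Tipin and named after its value was seen, was the gene not called, at 0.08, and had -1.56 with offsets.

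Among the 12 genes of replicative polymerases and primase, 11 were lower and 1 was higher, with a median of -0.96, and -1.03 with offsets. This stands beside 40.5% lower and 40.8% higher among all genes tested. Pola1, the catalytic subunit that starts each strand, averaged 28.6 ± 2.08 CPM in K68R, against 88.8 ± 1.87 CPM in WT (SD, n = 3 each), a log2 fold change of -1.63. Prim1, the primase, and Pold3, a subunit of polymerase delta, had -1.76 and -1.53. Pold1, the catalytic subunit of polymerase delta, was the higher one at 0.81 and reversed to -1.54 with offsets. Of 16 tested genes of clamp loading and Okazaki fragment joining, 15 were lower and 1 higher, with a median of -1.06. With offsets the median was -0.90 and all 16 were lower, beside 42.9% of all genes with a GC value. Pclaf, which binds Pcna directly, averaged 47.4 ± 1.01 CPM in K68R, against 138 ± 0.403 CPM in WT (SD, n = 3 each), a log2 fold change of -1.54. The clamp loader subunits Rfc2 and Rfc5 had -1.11 and -1.42, and Chtf18, of an alternative loader, was the higher one at 0.71 and reversed to -0.37 with offsets. Of the merged exons of Chtf18, 32.9% overlap Gng13 and Rpusd1 on the opposite strand, in counts that ignore strand. Chtf8, whose exons lie wholly within another gene, had no counts in any library and was not tested.

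Together these 4 lists held 51 tested genes, of which 46 were lower, 4 were higher and 1 was not called, beside 40.5% lower and 40.8% higher among all genes tested. With offsets 48 of the 51 were lower and 1 was higher, beside 42.9% lower among all genes with a GC value. Among relatives of MCM and geminin, 3 of 6 were tested. Mcm8, a helicase subunit used in recombination, averaged 5.90 ± 0.286 CPM in K68R, against 19.6 ± 0.635 CPM in WT (SD, n = 3 each), a log2 fold change of -1.73, and Mcmbp, which chaperones new MCM complexes, had -0.73. Mcm9, the partner of Mcm8 and named after its value was seen, was not called at -0.22, and was called lower at -0.84 with offsets. Of the merged exons of Mcm9, 13.9% overlap Asf1a on the opposite strand, in counts that ignore strand. Mcmdc2, Gmnc and Mcidas were below the filter on low counts.

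Of 10 genes that control or destroy licensing factors, 6 were lower and 4 higher, with a median of -0.34, and -0.19 with offsets, beside 40.5% lower and 40.8% higher among all genes tested. Dtl, the receptor that directs Pcna-bound Cdt1 to degradation, averaged 19.96 ± 0.623 CPM in K68R, against 50.3 ± 3.35 CPM in WT (SD, n = 3 each), a log2 fold change of -1.33. Skp2, of another ubiquitin ligase that acts on Cdt1, had -0.79. Kmt5a, a histone methyltransferase that is itself degraded on Pcna, was higher at 0.69, and at 0.44 with offsets. Fzr1, an activator of the anaphase-promoting complex, was higher at 0.59 and reversed to -0.36 with offsets. The other higher ones, Cul4a and Ddb1, were named after their values were seen and had 0.17 and 0.06, and Ddb1 had -0.18 with offsets. With upper quartile normalization 7 of the 10 were lower and 3 higher.

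Of 30 E2F factors and G1/S regulators, 16 were higher and 11 lower, beside 40.8% higher and 40.5% lower among all genes tested. The median of the 30 was 0.26, and 0.00 with offsets. Cdkn1c, a CDK inhibitor, averaged 199.8 ± 3.89 CPM in K68R, against 30.6 ± 1.63 CPM in WT (SD, n = 3 each), a log2 fold change of 2.70, and 2.01 with offsets. The listed CDK inhibitors went both ways. Cdkn1a, Cdkn2a and Cdkn2b were also higher, at 0.56, 2.17 and 1.26, and Cdkn1b and Cdkn2c were lower, at -0.51 and -1.24. With offsets Cdkn1b was not called at -0.10, and the others kept their direction. Those besides Cdkn1c were named after their values were seen. Ccna2, the cyclin of S phase, had -1.63, and Cdk4, the kinase of cyclin D, had -0.72. Of the merged exons of Ccna2, 11.2% overlap Exosc9 on the opposite strand, in counts that ignore strand. The 3 not called were E2f2, E2f4 and E2f6, at 0.14, -0.04 and 0.04. With offsets E2f4 and E2f6 had -0.01 and 0.00 and were again not called, while E2f2 was called lower at -1.31. E2f2 averaged only 1.05 CPM in K68R and 0.97 CPM in WT. E2f1 and E2f3, activating members of the family, had 0.48 and 0.49, and -0.57 and -0.65 with offsets, so their direction turned with the setting. E2f7 and E2f8 were higher both ways, at 0.65 and 0.85, and at 0.14 and 0.92 with offsets. E2f5 was lower both ways, at -0.31, and at -0.50 with offsets. All of these E2F factors were named after their values were seen. Of the 20 mitotic genes, 19 were lower, with a median of -1.40, and -1.11 with offsets. Ccnb1, the mitotic cyclin, averaged 55.7 ± 3.13 CPM in K68R, against 195 ± 3.13 CPM in WT (SD, n = 3 each), a log2 fold change of -1.81, and its kinase Cdk1 had -1.58. Mki67, a proliferation antigen, was the exception, averaging 148 ± 3.34 CPM in K68R, against 33.6 ± 1.504 CPM in WT (SD, n = 3 each), a log2 fold change of 2.14, and 1.73 with offsets.

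**Figure D5:**
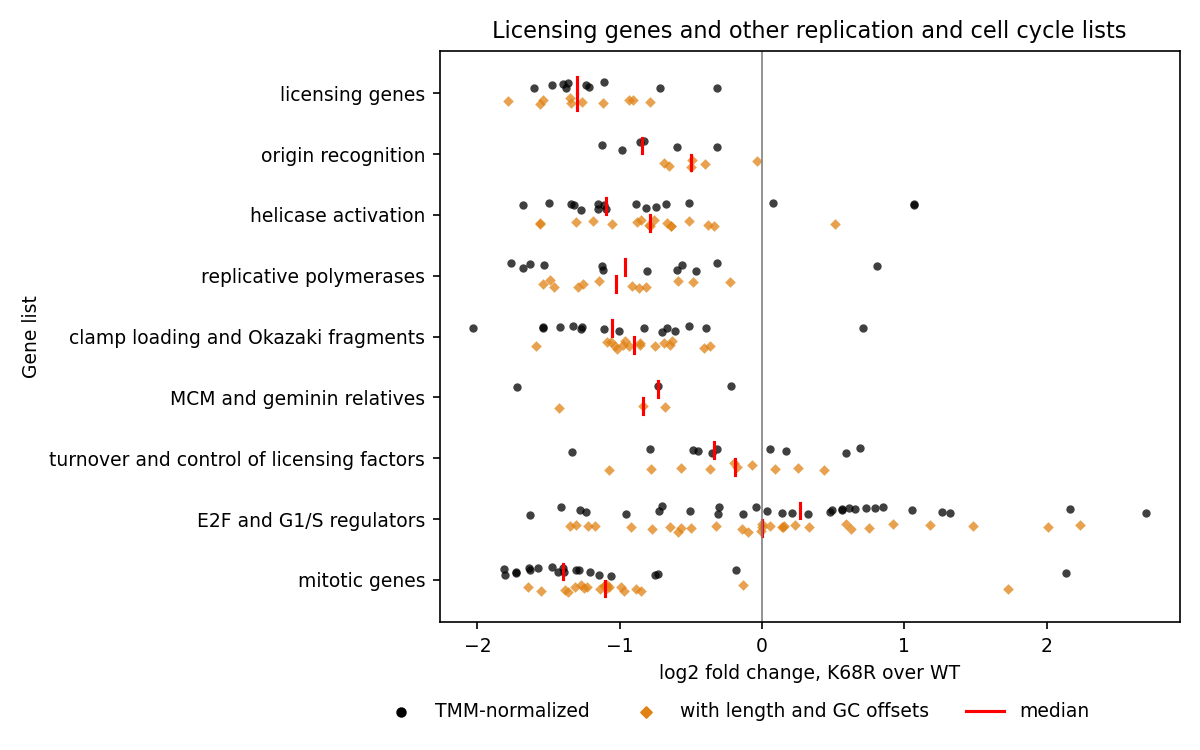
Log2 fold change of K68R over WT for each tested gene of the licensing list and of the other replication and cell cycle lists, as black circles after TMM normalization and orange diamonds with length and GC offsets, with a red line at the median of each. The licensing and mitotic lists lie furthest left, with medians of -1.30 and -1.40, and the list of E2F and G1/S regulators spreads on both sides of 0.

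The cells carried fibroblast markers, whose 10 genes summed to 17966 to 18018 CPM in K68R and 7551 to 7662 CPM in WT, with 5 higher and 4 lower. Of the higher ones, Fn1 averaged 7154 CPM in K68R and 387 CPM in WT, and Col1a1 2445 and 165 CPM. The 4 lower were Pdgfra, Thy1, Dcn and Lum, with log2 fold changes of -2.48, -1.62, -2.12 and -2.14, and Vim was not called. These markers were named after their values were seen. Markers of other cell types also differed between the genotypes. Such counts stand beside 40.8% higher and 40.5% lower among all genes tested. The 8 skeletal myogenic markers, all higher, summed to 222.6 to 223.6 CPM in K68R and 56.9 to 58.5 CPM in WT, where Pax7 had no counts. The 6 adipocyte markers, all lower, summed to 59.4 to 63.9 CPM in K68R, where Plin1 had no counts, and to 228 to 241 CPM in WT. The 5 epithelial markers, all lower, summed to 18.4 to 20.4 CPM in K68R and 42.3 to 43.5 CPM in WT, and the 5 endothelial markers, of which Kdr and Emcn were higher, to 96.1 to 97.9 CPM in K68R and 24.7 to 27.2 CPM in WT. Kdr alone gave 90.7 CPM of that sum in K68R and 20.4 CPM in WT, and Pecam1, Cdh5 and Tek were not called. The 5 neural markers, 3 higher and 2 lower, summed to 67.0 to 69.9 CPM in K68R and 39.0 to 39.6 CPM in WT, the 8 macrophage markers, 3 higher and 2 lower, to 143 to 149 CPM in K68R and 151 to 154 CPM in WT, and the 4 erythroid markers to under 1 CPM in every library. With length and GC offsets 5 macrophage markers were higher and 1 lower, and 5 fibroblast markers higher and 5 lower. Among all 15676 genes with a GC value 5210 were then higher and 6729 lower. Csf1r turned from a log2 fold change of 0.37 to -0.29, and Pdgfrb from 0.29 to -1.12. Lyz2 turned from -0.28 to 0.19 and Cd68 from -0.17 to 0.31. These were also named after their values were seen. Counts of the other marker lists stayed the same. The part of these cell types in the fall of the licensing transcripts was not tested.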

How the data were processed

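The data are 3 libraries of K68R and 3 of WT fibroblasts, made from poly(A) RNA. Per the labels' protocols, RNA had an integrity number above 4 and went into a stranded library kit. The submitters' processing notes name build mm39 and, as tools, featureCounts 2.0.6, HISAT2 2.2.1, bcl2fastq and SAMtools. The deposited values are raw counts of read pairs by gene, and per the file headers these were taken over exons of the RefSeq annotation without strand and without multi-mapped reads. A gene with a near-identical copy can be undercounted that way.

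Groups came from the titles, which call the libraries biological replicates. Nothing states separate embryos or cultures, so p-values measure only the spread between these libraries, which may be technical. The chi-square per gene between libraries of one genotype was 1.85 to 2.31, more than sampling noise gives. The common coefficient of variation fitted by edgeR beyond that noise was 2.19%. If the 3 libraries of a genotype came from a shared culture, a difference between cultures could not be told from one between genotypes.

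Counts over the whole table were analysed with edgeR 4.0.16 in R 4.3.3 (filterByExpr, TMM, robust quasi-likelihood F test). Genotype was the only term, and adjustment was by Benjamini-Hochberg. After the fit, the test was also run on counts simulated from the observed mean levels. Those had the same dispersion for all genes and few changed genes, unlike these data. Offsets for exon length and GC content were smooth surfaces fitted per library with mgcv 1.9.3. GC content came from GENCODE transcripts of GRCm38 joined by symbol, for 93.7% of tested genes. Ratios and subunit shares used counts per exonic kilobase and exact permutation over 20 assignments. Alternatives used DESeq2 1.42.0 and limma 3.58.1. Promoter windows were matched by symbol, and their GRCm38.p6 coordinates are separate from the mm39 ones of the counts. The listed genes named were up to 3 called genes of smallest p and up to 2 of the opposite direction per list. The 10 genes, the lists and the tests were chosen with earlier results of these data known. The limit of 3 counts covers counting error only, while the 95% intervals of fold changes come from edgeR standard errors, which include the spread between libraries.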

Additional observations from a re-analysis of the deposited data

How the results depend on the processing

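All 10 licensing genes were called lower in every setting except that Cdt1 was not called against the 1.5-fold bound or with the length offset alone. Their median log2 fold change of -1.30 was -1.41 with upper quartile normalization, which moved the median of all genes by -0.11, -1.34 with no filter, -1.27 with a filter of 1 CPM in 3 libraries and -1.16 with the length offset, and ran from -1.32 to -1.28 when single libraries were left out. Against the 1.5-fold bound 2490 genes of the table were lower and 4365 higher, beside 6780 and 6833 against no change. With the length and GC offset the log2 ratio over Mcm2 to Mcm7 reversed to 0.44 for Pcna and 0.22 for Gmnn, and with GC content of the longest transcript, a setting added after seeing the data, to 0.46 and 0.086. With that offset, with it and the replicate block together, and with the longest transcript, 4 of the listed genes named for their p also reversed, Recql4 to -0.34, -0.33 and -0.39, Pold1 to -1.54, -1.54 and -1.55, Chtf18 to -0.37, -0.37 and -0.38, and Fzr1 to -0.36, -0.37 and -0.28. Of 114 listed replication and cell cycle genes with both values, cell type markers not included, 10 turned sign with the offset, 8 of them called both ways. The causes were not tested. Without single libraries the difference in subunit variation ran from 3.47 to 4.26, and the Gmnn ratio from -0.23 to -0.09. Against the 1.5-fold bound Orc3, Chtf18, Fzr1 and Sod2 were not called, and list counts were smaller, with 7 polymerase genes lower beside 11, 2 lower and 1 higher turnover genes beside 6 and 4, and 7 lower and 8 higher E2F and G1/S genes beside 11 and 16. Same-numbered libraries of the 2 genotypes shared only a number, since their deviations correlated at -0.01 to 0.01 and 1 of 3 matched its own number best. The replicate block left all 10 licensing genes lower, with a median of -1.30, 6763 genes lower and 6804 higher. With 3 libraries per genotype, exact tests cannot go below p = 0.1, and the lowest count of a licensing gene in a library was 247.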
